A study of Arabidopsis thaliana with 18 samples.

Results

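The 6 libraries described here were made from Arabidopsis thaliana explants cultured without hormone, 3 after 5 d and 3 after 10 d, and they are 6 of the 18 libraries of the series. The explants were immature zygotic embryos (IZEs) of the Col-0 accession, taken at the cotyledonary stage and placed on solid E0 medium, on which such embryos grow into seedlings. All 6 libraries come from wild-type plants and no inducer was added, so culture time is the only labelled difference between both groups. The other 12 libraries are the ET (1 µM trichostatin A, or TSA, which blocks histone deacetylases) and EA (5 µM of the synthetic auxin 2,4-D) cultures of the same explants at the same times, on which somatic embryos form. They enter the same fit as the 6 E0 libraries, and are otherwise used only to ask whether a change was particular to E0. Each library was made from many pooled whole explants, so a higher level can come from more cells of a type or from more RNA per cell, and these cannot be told apart. The labels call the 3 libraries of a group biological replicates. Of 34218 genes in the deposited counts, 23539 were measured well enough to be tested.

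An embryo cut out of the developing seed has not yet finished maturation. In the intact seed this phase is run by the B3-domain factors ABI3, FUS3 and LEC2 with LEC1-type subunits, which bind the RY motif in promoters of storage protein and oil-body genes. Late in maturation, abscisic acid and desiccation bring up the LEA (late embryogenesis abundant) proteins, which protect cells when water is lost. In a germinating seedling these programmes are shut off, light drives chloroplast development, the root makes hairs, a Casparian strip and suberin, and vascular strands differentiate. The comparison of 10 d with 5 d asks which of these programmes moved in explants that were not steered towards embryogenesis.

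Between 5 d and 10 d, 2454 genes rose and 1672 fell, which is 10.4% and 7.10% of the genes tested. They are called DEGs below, and all adjusted p-values are Benjamini-Hochberg values over the genes tested from the quasi-likelihood test of edgeR, in a fit over all 18 libraries, with a threshold of 0.05. Rises were steeper than falls, since 407 DEGs had a fitted rise of at least 10-fold and 25 a fitted fall of that size. The median log2FC over all genes tested was 0.019, where log2FC is the fitted log2 of the 10 d level over the 5 d level. Counts of DEGs in the gene lists below are to be read beside this median and the shares of 10.4% up and 7.10% down. In 4081 of the 4126 DEGs the 3 libraries of one day lay wholly above the 3 of the other, as they did in 42.2% of all genes tested. Leaving out the 5 d replicate a or c reduced the rises to 1579 or 1593, and leaving out the 5 d replicate a or the 10 d replicate c reduced the falls to 1084 or 959.

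Library totals ran from 9098758 to 45361683 counts at 5 d and from 15587778 to 58364735 counts at 10 d, so that 3 counts correspond to between 0.0514 and 0.33 CPM (counts scaled to the depth of each library), and lower levels were not reliably detectable. Across genes, the log2 values of libraries of one day had a Pearson's r of 0.976 for each pair at 5 d and of 0.965 to 0.986 at 10 d. The 10 d replicate b stood apart. It had 0.905% of its counts on small nucleolar RNAs against 0.1% and 0.238% in replicates a and c, 0.517% on LEA genes against 0.152% and 0.161%, and 0.482% on nuclear photosystem and Rubisco genes against 0.847% and 0.843%. Without this library 3386 DEGs were found, 3097 of them among the 4126, all in the same direction. All lists and members were also fitted without it, and these values are given beside most of the named genes whose call was lost or whose fold change moved by over 1.5 times.

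**Figure D1:**
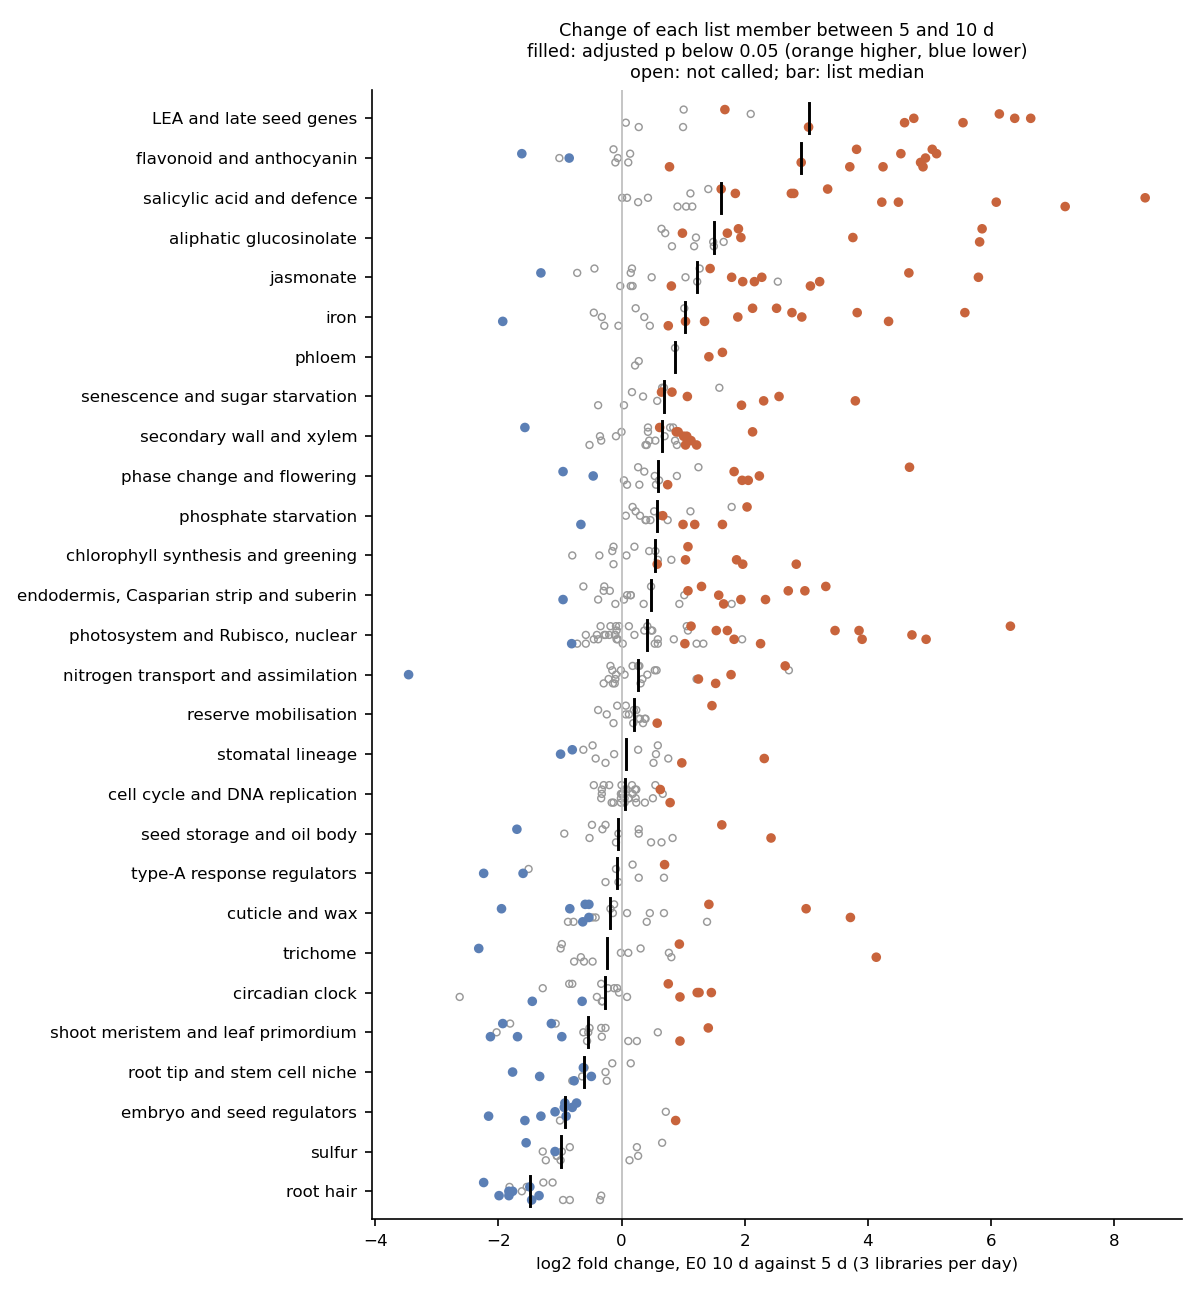
The log2FC of 10 d against 5 d on E0 for every tested member of 28 gene lists (horizontal axis, log2 units), with filled points for DEGs, open points for other genes and a bar at each list's median. Root hair genes lie wholly below 0 with a median of -1.49, LEA and flavonoid genes have medians of 3.04 and 2.92, and cell cycle genes stay close to 0 with a median of 0.05.

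The seed storage programme did not fade as a block. Transcripts of 12S cruciferins, 2S albumins and oleosins, the proteins of seed protein bodies and oil bodies, made up 13.5% ± 2.06 of all counts at 5 d and 16.4% ± 3.8 at 10 d (SD, n = 3). The exact two-sided permutation test gave p = 0.4, where 3 against 3 libraries cannot go below 0.1. Of 15 storage and oil-body genes, 2 rose, 1 fell and 12 were not called, with a median log2FC of -0.05 beside 0.019 for all genes. DEGs made up 20% of this list, not far from the shares over all genes tested, where 10.4% rose and 7.10% fell. CRU3, a cruciferin, was the most abundant transcript, at 42930, 69913 and 34986 CPM at 5 d and 57678, 104085 and 69989 CPM at 10 d. The days overlapped, and its log2FC of 0.65 ± 0.45 (SE) was not called (adjusted p = 0.368). CRA1, another cruciferin, and OLEO1, the major oleosin, also overlapped between days, with log2FC values of -0.05 and -0.26.

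Within the 2S albumins, members of one gene family went separate ways. SESA1 was at 792, 813 and 679 CPM at 5 d and at 2815, 5340 and 4134 CPM at 10 d. All 10 d libraries lay above all 5 d libraries, with a log2FC of 2.43 ± 0.40 (adjusted p = 0.000639). SESA5 was at 431, 523 and 276 CPM at 5 d and at 1029, 2003 and 779 CPM at 10 d, again without overlap, and its log2FC of 1.63 became 1.14 without the 10 d replicate b, where it was still called (adjusted p = 0.03). SESA3, the most abundant albumin at 5 d, was at 16967, 15447 and 12565 CPM at 5 d and at 8071, 18270 and 10062 CPM at 10 d, and these overlapped. The only oil-body gene that fell was OLEO3, an oleosin, from 2201, 1810 and 1997 CPM to 665, 664 and 526 CPM, a log2FC of -1.70 ± 0.27 (adjusted p = 0.000492). The calls of SESA1, SESA5 and OLEO3 were kept in all 6 fits that each left out 1 of the E0 libraries.

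The RY motif, searched as CATGCA on both strands, occurred in the 250 bases before the annotated start of 14 of the 15 storage and oil-body genes, and in 8.43% of the 27443 protein-coding genes. The G-box, searched as CACGTG, which reads the same on both strands, occurred in 7 of the 15 and in 6.49% of all. These stretches are shown because the genes that rose, the gene that fell and the gene that was not called all hold the RY motif. They are from the RefSeq annotation of TAIR10.1, read 5′ to 3′ along the gene, with RY motifs and G-boxes in capitals. SESA1 is at chr4:13607079-13607328 on the plus strand, SESA5 at chr5:22239188-22239437 on the minus strand, OLEO3 at chr5:20819818-20820067 on the plus strand and CRU3 at chr4:14087306-14087555 on the plus strand.
SESA1 (rose): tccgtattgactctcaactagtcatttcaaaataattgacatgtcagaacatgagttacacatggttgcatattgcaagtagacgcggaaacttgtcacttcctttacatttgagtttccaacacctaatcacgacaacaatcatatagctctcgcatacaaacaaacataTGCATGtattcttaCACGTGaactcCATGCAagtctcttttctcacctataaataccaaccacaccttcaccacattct
SESA5 (rose): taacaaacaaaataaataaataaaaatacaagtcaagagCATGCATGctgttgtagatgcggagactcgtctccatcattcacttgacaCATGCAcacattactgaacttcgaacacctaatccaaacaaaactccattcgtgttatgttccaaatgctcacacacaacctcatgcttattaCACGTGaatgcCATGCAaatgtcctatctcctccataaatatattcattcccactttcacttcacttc
OLEO3 (fell): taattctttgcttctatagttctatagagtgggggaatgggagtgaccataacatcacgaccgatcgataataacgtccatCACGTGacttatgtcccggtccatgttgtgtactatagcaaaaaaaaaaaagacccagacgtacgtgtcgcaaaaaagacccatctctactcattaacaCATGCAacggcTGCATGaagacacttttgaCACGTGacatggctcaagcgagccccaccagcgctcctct
CRU3 (not called): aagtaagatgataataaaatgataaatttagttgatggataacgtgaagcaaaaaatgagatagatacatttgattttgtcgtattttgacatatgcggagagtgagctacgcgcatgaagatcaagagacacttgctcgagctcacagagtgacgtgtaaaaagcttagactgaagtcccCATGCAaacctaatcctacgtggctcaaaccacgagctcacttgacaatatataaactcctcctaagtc
In these letters, SESA1 held 2 RY motifs and 1 G-box, SESA5 4 and 1 with 2 of the RY motifs overlapping, OLEO3 2 and 2, and CRU3 1 RY motif and no G-box. A match is a description of the sequence and not a measured binding site.

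LEA genes, by contrast, rose. Of 13 LEA and late seed genes, 8 rose and none fell, with a median log2FC of 3.04, and their share of counts went from 0.0819% ± 0.00495 to 0.277% ± 0.208 (SD, n = 3; exact p = 0.1, the lowest the design allows). RAB18 (AT5G66400), a dehydrin induced by abscisic acid, was at 2.28, 4.55 and 1.76 CPM at 5 d and at 59.7, 592 and 53.1 CPM at 10 d. The 10 d replicate b was far above the others, but replicates a and c also lay above every 5 d library, and the log2FC of 6.39 ± 0.97 (adjusted p = 0.000354) was 4.33 without replicate b. LTI65, another gene of the abscisic acid response, went from 0.594, 1.42 and 0.658 CPM to 12.9, 90.3 and 13.2 CPM. Its log2FC was 5.55 ± 0.76 with all libraries and 3.97 without the 10 d replicate b. AT3G15670, which encodes a LEA family protein, went from 54.4, 82 and 32.6 CPM to 705, 2681 and 709 CPM, with log2FC values of 4.60 and 3.65 with and without that library.

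The classic late markers EM1 and EM6, group 1 LEA proteins of dry seeds, remained at low levels outside replicate b. EM1 was at 0.0713, 0.101 and 0.219 CPM at 5 d and at 0.805, 21.3 and 1.26 CPM at 10 d. Its log2FC of 6.14 became 3.28 without the 10 d replicate b, and both values were called. EM6 had 3 counts in all at 5 d and 356 at 10 d, a ratio of 65.2 with a 95% counting interval of 22.1 to 318 that covers counting error only. At 10 d it was at 0.939, 14.9 and 1.68 CPM, and its log2FC of 6.65 became 4.53 without replicate b (adjusted p = 0.0121). LEA4-5, a group 4 LEA protein, overlapped between days and its call was lost without the 10 d replicate b, where the log2FC was 0.46 (adjusted p = 0.422, against 1.68 and 0.034 with it), and also without the 5 d replicate a or c (0.121 and 0.113). The call of AT3G22490 was also lost without that library (log2FC 4.75 and 2.24, adjusted p = 0.00888 and 0.0692), and 6 of the 8 LEA calls were kept.

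**Figure D2:**
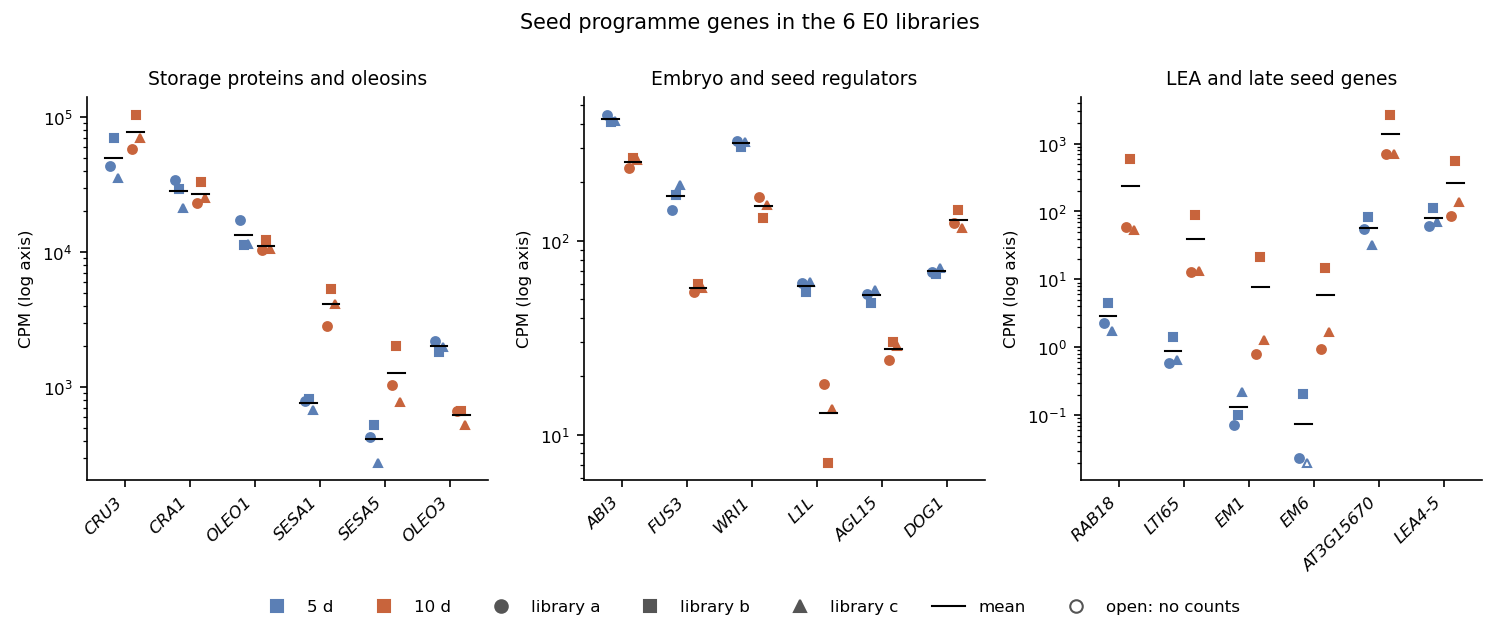
Levels of storage and oil-body genes, regulators and LEA genes in each E0 library (vertical axis, CPM on a log scale; a marker per library, a bar at the mean of 3). CRU3 and CRA1 overlap between days, FUS3 falls from 144, 172 and 193 CPM to 54.4, 59.8 and 57.2 CPM, and RAB18 rises in all 3 libraries with replicate b at 592 CPM.

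While storage transcripts stayed high, most of the regulators of seed maturation fell. Of 12 such genes, 9 fell and 1 rose, with a median log2FC of -0.92, and their share of counts went from 0.136% ± 0.00911 to 0.0816% ± 0.00323 (SD, n = 3; exact p = 0.1). FUS3, a B3-domain activator of storage genes, was at 144, 172 and 193 CPM at 5 d and 54.4, 59.8 and 57.2 CPM at 10 d. The days did not overlap, with a log2FC of -1.57 ± 0.29 (adjusted p = 0.00161). L1L, a LEC1-like subunit of the CCAAT-binding factor, fell from 60.4, 54.7 and 60.9 CPM to 18.3, 7.16 and 13.5 CPM, the largest fall of the list (log2FC -2.16 ± 0.33, adjusted p = 0.000333). WRI1, the AP2 factor that switches on fatty acid synthesis genes, fell from 326, 306 and 323 CPM to 169, 131 and 152 CPM (log2FC -1.08).

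ABI3, the abscisic acid-linked B3 factor and the most abundant regulator, was at 448, 409 and 414 CPM at 5 d and at 237, 267 and 261 CPM at 10 d. The days did not overlap, but its call (log2FC -0.73, adjusted p = 0.0195) was lost when the 5 d replicate a, the 10 d replicate a or the 10 d replicate c was left out, with adjusted p up to 0.0729. The MADS factor AGL15, the bZIP factor DPBF2 and the zinc finger protein PEI1 fell by 0.92, 0.90 and 0.93 on the log2 scale, and these calls held without any 1 library. LEC2 was at or below 1.1 CPM in each 5 d library, and its call held only without the 5 d replicate b or the 10 d replicate a (adjusted p up to 0.183 otherwise), and that of ABI4 only without the 10 d replicate b (up to 0.134). LEC1 and ABI5 were not called, and the log2FC of ABI5 was 0.72 with all libraries and -0.28 without the 10 d replicate b. The 1 member that rose was DOG1, which sets seed dormancy, from 69.1, 67.1 and 72.4 CPM to 123, 144 and 116 CPM (log2FC 0.88 ± 0.19, adjusted p = 0.00399).

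Reserve mobilisation genes, which turn stored oil into sugar after germination, were mostly not called. Of 17 genes of fatty acid oxidation, the glyoxylate cycle and gluconeogenesis, 2 rose and none fell (median log2FC 0.20). Those rises are 11.8% of the list, near the 10.4% of all genes tested that rose. ICL, isocitrate lyase, was at 490, 545 and 480 CPM at 5 d and at 419, 866 and 554 CPM at 10 d. MLS, malate synthase, was at 306, 306 and 269 CPM and then 219, 469 and 272 CPM, and for both enzymes the 10 d replicate b was highest and the days overlapped. PCK1, phosphoenolpyruvate carboxykinase, had a log2FC of 0.58 (adjusted p = 0.0329) and PMDH2, a peroxisomal malate dehydrogenase, of 1.47 (adjusted p = 0.0178). With 1 library left out, PCK1 was called only without the 5 d replicate a or the 10 d replicate a, and PMDH2 only without the 5 d replicate b or the 10 d replicate b, with adjusted p up to 0.137 and 0.0761 otherwise.

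Photosynthesis genes rose by gene copy rather than as a block. Of 47 nuclear genes for photosystem, antenna and Rubisco proteins, 12 rose and 1 fell, with a median log2FC of 0.42. DEGs made up 27.7% of the list, where 10.4% of all genes tested rose and 7.10% fell. Without the 10 d replicate b, which had the lowest photosystem share of its group, 15 rose and none fell. In the Rubisco small subunit family, RBCS1A was high on both days at 1008, 936 and 829 CPM and then 884, 717 and 1013 CPM (log2FC -0.09, adjusted p = 0.877). RBCS3B rose from 2.88, 3.34 and 1.1 CPM to 80.9, 62.3 and 89.3 CPM, a log2FC of 4.95 ± 0.92 (adjusted p = 0.00167). RBCS2B rose from 0.784, 2.22 and 0.219 CPM to 21.8, 29 and 31.2 CPM and RBCS1B had a log2FC of 3.47. These genes are close copies, and 14%, 5.07% and 9.29% of the 76-base windows in the exons of RBCS3B, RBCS2B and RBCS1B occur elsewhere in the genome, so counts of uniquely aligned reads leave out part of each.

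The light-harvesting chlorophyll proteins of photosystem II showed the same spread. LHCB1.3 was at 1183, 705 and 662 CPM at 5 d and at 964, 443 and 968 CPM at 10 d, and these overlapped (log2FC -0.10). LHCB1.1 rose from 33.3, 30.6 and 28.1 CPM to 553, 252 and 576 CPM, a log2FC of 3.91 ± 0.43 (adjusted p = 2.41e-05). LHCB1.4 was nearly absent at 5 d and reached 17.3, 7.56 and 15 CPM at 10 d (log2FC 6.32 ± 1.12). LHCB2.3 and LHCB2.2 rose with log2FC values of 3.86 and 1.72, where 40.6% of the exon length of LHCB2.3 faces an exon on the other strand, while LHCB2.1 overlapped between days. RCA, the activase that keeps Rubisco open, rose from 57.5, 99 and 88.4 CPM to 458, 309 and 402 CPM (log2FC 2.26 ± 0.23, adjusted p = 1.15e-05).

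The PsbQ pair of the oxygen-evolving complex moved in opposite directions. PSBQ1 went from 12.3, 16.4 and 12.8 CPM to 41.3, 33.9 and 44.8 CPM, a log2FC of 1.54 ± 0.42 (adjusted p = 0.0174), a call lost without the 5 d replicate a or c or the 10 d replicate c (0.0709, 0.0649 and 0.0567). PSBQ2 went from 179, 190 and 174 CPM to 130, 57.7 and 121 CPM, without overlap, but the call of its log2FC of -0.81 (adjusted p = 0.0497) held only without the 10 d replicate a among the 6 fits with 1 library left out, and the log2FC was -0.52 without the 10 d replicate b (adjusted p = 0.162). Both promoters hold 2 G-boxes, in capitals below, and are shown because the paralogues share the motif and not the change. PSBQ1 is at chr4:11334102-11334351 on the plus strand and PSBQ2 at chr4:2673244-2673493 on the minus strand of TAIR10.1, by RefSeq.
PSBQ1: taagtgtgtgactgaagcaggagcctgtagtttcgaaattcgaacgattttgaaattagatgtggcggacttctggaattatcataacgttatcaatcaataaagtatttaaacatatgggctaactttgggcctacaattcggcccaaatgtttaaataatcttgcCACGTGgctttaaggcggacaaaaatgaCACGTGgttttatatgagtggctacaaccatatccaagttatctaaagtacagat
PSBQ2: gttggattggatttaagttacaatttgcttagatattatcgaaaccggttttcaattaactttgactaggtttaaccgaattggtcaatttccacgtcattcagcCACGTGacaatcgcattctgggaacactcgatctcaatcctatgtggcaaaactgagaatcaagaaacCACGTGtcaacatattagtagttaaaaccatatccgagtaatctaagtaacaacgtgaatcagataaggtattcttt
The PSBO pair was less clear, as PSBO2 had a log2FC of 1.03 whose call held only without the 10 d replicate b (adjusted p up to 0.1 otherwise) and PSBO1 had -0.08.

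**Figure D3:**
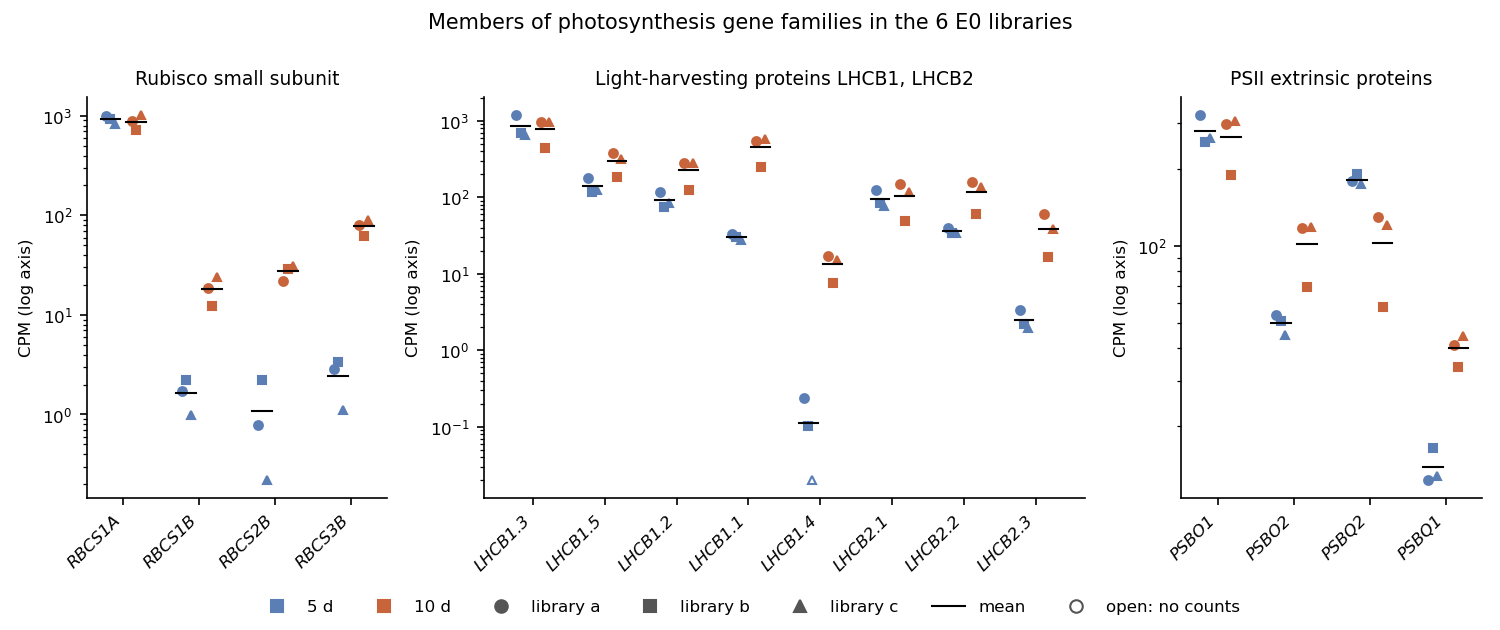
Levels of members of the RBCS, LHCB1, LHCB2, PSBO and PSBQ families in each E0 library (vertical axis, CPM on a log scale; a marker per library, open where no read was counted, a bar at the mean of 3). The members that were low at 5 d, such as RBCS3B, RBCS2B, LHCB1.1 and LHCB1.4, rise, and those that were already high, RBCS1A and LHCB1.3, overlap between days.

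Several greening factors rose. Of 17 chlorophyll synthesis and greening genes, 6 rose and none fell (35.3% called, median log2FC 0.55). Over all genes tested, 10.4% rose and 7.10% fell. PORC, the protochlorophyllide oxidoreductase of light-grown tissue, rose from 5.44, 6.07 and 4.39 CPM to 37.7, 32.1 and 44 CPM, a log2FC of 2.84 ± 0.26 (adjusted p = 5.92e-06). The GATA factors CGA1 and GNC, which promote greening downstream of cytokinin and light, had log2FC values of 1.97 and 1.87, and the MYB-type factor GLK1, an activator of photosynthesis genes, of 1.08. GLK2, the paralogue of GLK1, and HY5, a bZIP factor of the light response, were not called, with log2FC values of -0.13 and -0.36. In CGA1 the levels went from 8.34, 7.38 and 8.34 CPM to 25.3, 36.6 and 32.9 CPM. Genes of the chloroplast genome took 5.87% ± 0.701 of counts at 5 d and 6.58% ± 1.62 at 10 d (SD, n = 3, exact permutation p = 0.6). Among them 24 of 114 rose (21.1%, against 10.4% of all genes tested) and none fell. That count was 17 without the 5 d replicate a, 5 without the 5 d replicate b, 11 without the 5 d replicate c, 10 without the 10 d replicate a, 13 without the 10 d replicate c and 25 without the 10 d replicate b.

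Anthocyanin genes rose strongly, whereas the early flavonoid genes were mostly not called. Of 19 flavonoid genes 11 rose and 2 fell, with a median log2FC of 2.92, and the flavonoid share of counts went from 0.178% ± 0.0192 to 0.249% ± 0.0152 (SD, n = 3; exact p = 0.1). CHS, chalcone synthase, the entry enzyme, was at 729, 514 and 415 CPM and then 604, 579 and 646 CPM (log2FC 0.14, adjusted p = 0.888). Its neighbours in the pathway CHI (AT3G55120), F3'H and FLS1 also overlapped between days, with log2FC values of 0.11, -0.10 and -0.06. DFR, the first enzyme of the anthocyanin branch, rose from 3.59, 4.25 and 1.86 CPM to 83.5, 87 and 116 CPM (log2FC 4.86 ± 0.57, adjusted p = 4.34e-05). LDOX, which acts next, rose from 3.04, 5.87 and 2.41 CPM to 84.4, 122 and 126 CPM (log2FC 4.90 ± 0.66, adjusted p = 0.000126). UF3GT and 5MAT, which add sugar and malonyl groups, had log2FC values of 4.54 and 5.05, whereas UGT78D2, another enzyme that adds a sugar to flavonoids, was not called (-0.13, adjusted p = 0.742). TT19, which carries anthocyanin to the vacuole, had a log2FC of 4.25.

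Among regulators of the anthocyanin branch, TT8, PAP1, PAP2 and MYBL2 rose with it. The regulators TTG1, EGL3 and GL3, kept in the trichome list, were not called, with log2FC values of -0.47, -0.66 and 0.11. TT8, the bHLH partner of the MYB activators, rose from 0.285, 0.405 and 0.549 CPM to 8.85, 17.9 and 12.9 CPM, a log2FC of 5.12 ± 0.60 (adjusted p = 4.19e-05). PAP1 (AT1G56650) and PAP2 (AT1G66390), the MYB activators, had log2FC values of 3.71 and 2.92, and MYBL2, a repressor of the pathway, of 4.94. MYB12, an activator of the early flavonol genes, went the other way, from 30.4, 48 and 30.6 CPM to 9.92, 16.3 and 9.36 CPM (log2FC -1.62 ± 0.37, adjusted p = 0.00587). Its relative MYB11 fell by 0.85 on the log2 scale, a call lost without the 5 d replicate c or the 10 d replicate c (adjusted p = 0.0689 and 0.0698). F3H (log2FC 0.78, adjusted p = 0.0442) was called in none of the fits with 1 library left out (0.0706 to 0.152), and 93.8% of its exon length faces exons on the other strand. Without the 5 d replicate c or the 10 d replicate c only 1 gene of the list, MYB12, fell.

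**Figure D4:**
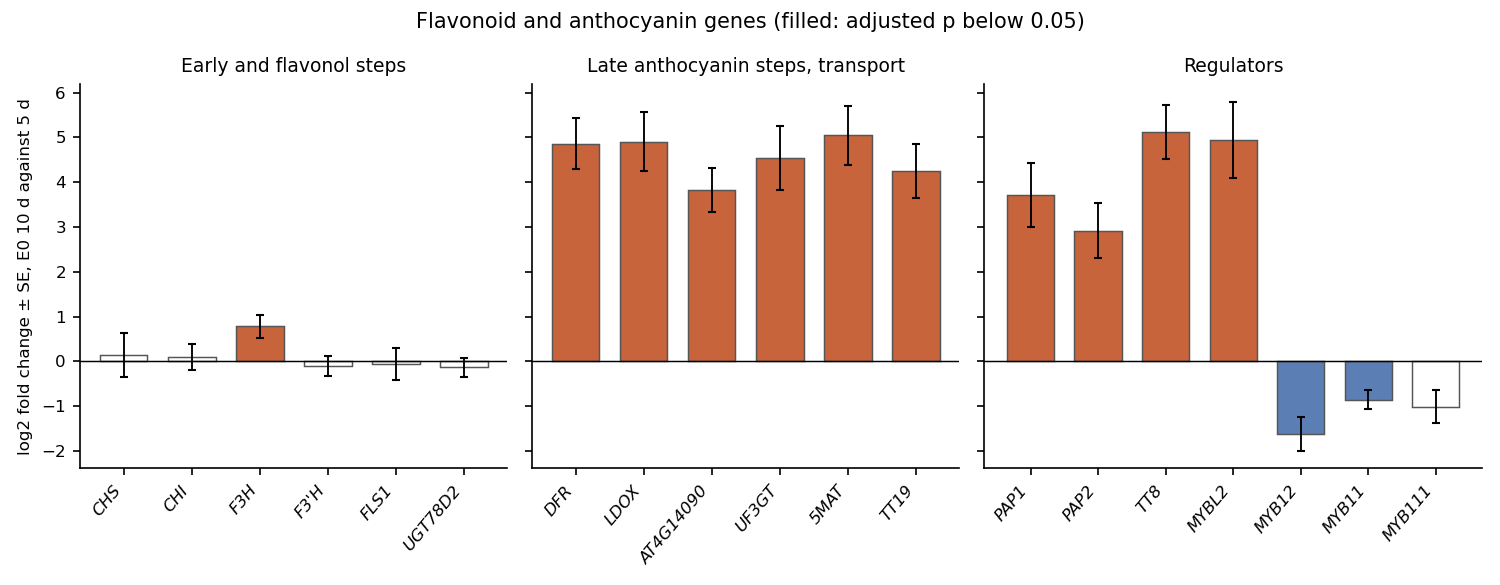
The log2FC of 10 d against 5 d on E0 for flavonoid genes (vertical axis, log2 units; bars with ±1 SE from the fit), in the order early enzymes, anthocyanin branch, regulators. Early enzymes lie near 0 (CHS at 0.14) except F3H at 0.78, the anthocyanin branch lies between 3.82 and 5.05, and MYB12 is at -1.62.

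Some boundary genes of the shoot apex fell. Of 20 shoot meristem and leaf primordium genes, 5 fell and 2 rose (35% called, median log2FC -0.55), beside 7.10% and 10.4% of all genes tested. CUC3, a NAC factor that marks the boundary between cotyledons, fell from 13, 11.5 and 12.4 CPM to 3.78, 2.81 and 4.75 CPM (log2FC -1.69 ± 0.25, adjusted p = 0.000283). CUC2, of the same family, and FIL, a YABBY factor of the lower leaf side, fell by 1.93 and 0.97 on the log2 scale. The boundary genes CUC1 and LAS were not called, with log2FC values of -0.54 and 0.59. CLV1, the receptor kinase that limits the stem cell pool, rose from 13.5, 14.7 and 15.1 CPM to 30.7, 23.4 and 29 CPM (log2FC 0.95 ± 0.18, adjusted p = 0.00218), and RAX1, a MYB factor of axillary meristems, had a log2FC of 1.41. The stem cell genes STM and WUS were not called, with STM between 2.73 and 4.33 CPM at 5 d and between 2.09 and 3.25 CPM at 10 d. The number of falls was 3 without the 5 d replicate b or the 10 d replicate c and 4 or 5 without the others.

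Among 18 phase change and flowering genes, 6 rose and 2 fell (44.4% called, median log2FC 0.59), beside 10.4% and 7.10% of all genes tested. SVP, a MADS factor that represses flowering in vegetative plants, went from 0.333, 0.506 and 0.768 CPM to 9.6, 12 and 14.8 CPM. It had the largest change of the list, a log2FC of 4.68 ± 0.56 (adjusted p = 4.9e-05). FLC, which represses flowering before vernalization, fell from 59.3, 59 and 68.7 CPM to 31.8, 33.3 and 31.5 CPM (log2FC -0.95 ± 0.20, adjusted p = 0.00377), where 68.1% of its exon length faces annotated exons on the other strand and the strand setting of the counts is not given in the sources used here. TOE3 and SNZ, AP2-type repressors of flowering, had log2FC values of 2.24 and 2.06 at levels of at most 3.48 CPM. The SPL genes, which promote the adult phase, had 1 call among those tested, SPL11 (log2FC 0.75), and that call held only without the 10 d replicate b (adjusted p up to 0.136 otherwise). FT, the flowering signal, had 0 counts at 5 d and 2 at 10 d. The number of rises in this list was 3 without the 5 d replicate a or the 10 d replicate c, 4 without the 5 d replicate c and 5 without the others. FLC was called in all 6 of these fits, SNZ in all but the one without the 5 d replicate a (adjusted p = 0.0634), and AP2, the other gene that fell, in 1.

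Many root hair genes fell on E0. Of 17 root hair genes, 8 fell, none rose and 9 were not called, with a median log2FC of -1.49 beside 0.019 for all genes. In all but RHD6 the days did not overlap, which was also so in 42.2% of all genes tested. Their share of counts went from 0.103% ± 0.0158 to 0.035% ± 0.00287 (SD, n = 3; exact p = 0.1). LRX1, a cell wall protein of growing hairs, fell from 65.7, 88.4 and 84.6 CPM to 18.6, 19.5 and 21.8 CPM, a log2FC of -1.99 ± 0.45 (adjusted p = 0.00626). PRP1, a proline-rich wall protein, fell from 88.9, 197 and 156 CPM to 33.2, 42 and 18.6 CPM (log2FC -2.24 ± 0.58, adjusted p = 0.0137). COW1, a lipid transfer protein needed for hair tip growth, fell from 77.4, 79.6 and 77.7 CPM to 31.9, 23.8 and 36.8 CPM (log2FC -1.34). Leaving out any 1 library left fewer calls, 4 without each of the 5 d replicates, 3 without the 10 d replicate a or c and 2 without the 10 d replicate b. LRX1 was called in all 6 of these fits. The call of PRP1 was lost without the 5 d replicate b or the 10 d replicate c (adjusted p = 0.0581 and 0.0725) and that of COW1 without the 10 d replicate a or b (0.053 and 0.0705). RSL4, the bHLH factor that drives hair growth (log2FC -1.49), was called in none of them (0.0735 to 0.11).

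Of 12 root tip genes, 5 fell and none rose (median log2FC -0.61). BRN2, a NAC factor of root cap maturation, fell from 4.44, 4.96 and 4.5 CPM to 1.77, 1.14 and 1.12 CPM (log2FC -1.77 ± 0.35, adjusted p = 0.00222) and was called in all 6 fits with 1 library left out. Its relatives BRN1 and SMB had log2FC values of -1.33 and -0.62. The call of BRN1 held only without the 5 d replicate a or the 10 d replicate b (adjusted p up to 0.105 otherwise), and that of SMB was lost without the 5 d replicate b or the 10 d replicate c (0.0546 and 0.0632). The stem cell niche genes WOX5, PLT1 and PLT2 were not called, with log2FC values of 0.15, -0.24 and -0.26. The number of root tip falls was 4 without the 5 d replicate a, 2 without the 5 d replicate b or c or the 10 d replicate a, 3 without the 10 d replicate b and 1 without the 10 d replicate c.

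Enzymes and a transporter of suberin formation rose, while other suberin genes were not called. Of 25 genes of the endodermis, Casparian strip and suberin, 9 rose and 1 fell (median log2FC 0.48). FAR5, a fatty acyl reductase that makes suberin alcohols, rose from 2.61, 2.33 and 1.65 CPM to 29.2, 17.2 and 20.8 CPM (log2FC 3.32 ± 0.59, adjusted p = 0.00109). FAR4, of the same family, rose from 0.998, 1.62 and 1.76 CPM to 13.4, 9.77 and 9.96 CPM (log2FC 2.98 ± 0.46, adjusted p = 0.000365). CYP86A1, the hydroxylase of suberin fatty acids, had a log2FC of 2.71, a call lost without the 5 d replicate a or c (adjusted p = 0.0532 and 0.0547). ABCG20, a transporter of suberin precursors, had a log2FC of 1.66 and was called in all 6 fits with 1 library left out. The suberin genes KCS2, KCS20, ABCG2, ABCG6, MYB41 and MYB53 were not called, with log2FC values of 0.36, 0.04, 0.94, 1.79, 1.02 and -0.62. That of MYB41 was 0.27 without the 10 d replicate b. None of CASP1 to CASP5, which build the Casparian strip, was called, and GSO1, the receptor kinase that seals it, fell from 156, 147 and 143 CPM to 90.2, 55.1 and 85.1 CPM (log2FC -0.95 ± 0.16, adjusted p = 0.000836). The number of rises was 5 without the 5 d replicate a, 3 without the 5 d replicate c and 6 or 7 without any other library.

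Vascular genes moved modestly. Of 26 secondary wall and xylem genes, 9 rose and 1 fell (38.5% called, median log2FC 0.66), beside 10.4% and 7.10% of all genes tested. CESA4, a cellulose synthase of secondary walls, rose from 10.6, 12.1 and 9.87 CPM to 27.3, 16.9 and 22.8 CPM (log2FC 1.04 ± 0.24, adjusted p = 0.00672). Its partner CESA8 had a log2FC of 1.06, a call lost without the 5 d replicate c (adjusted p = 0.0532). XND1, a NAC factor that holds back xylem differentiation, fell from 10.8, 11.6 and 16.7 CPM to 6.12, 3.21 and 3.6 CPM (log2FC -1.57 ± 0.22, adjusted p = 0.000192). The number of rises was 2, 5 and 3 without the 5 d replicate a, b and c, 3 and 4 without the 10 d replicate a and c, and 8 without the 10 d replicate b. In the phloem list, the sieve element proteins SEOR1 and SEOR2 rose with log2FC values of 1.64 and 1.42, 2 of 5 genes. That is 40% of a short list, beside 10.4% of all genes tested that rose.

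In the salicylic acid and defence list, 10 of 19 genes rose on E0 and none fell (median log2FC 1.62). The 9 genes not called included EDS1, PAD4, SAG101, NPR1, EDS5 and PR2, with log2FC values of 0.27, 0.09, 0.01, 0.43, 1.05 and 1.41. PBS3, which conjugates isochorismate on the way to salicylic acid, rose from 0.0475, 0.202 and 0.549 CPM to 9.98, 15.4 and 9.84 CPM (log2FC 6.09 ± 0.91, adjusted p = 0.000304). PR4, a hevein-like protein, rose from 14.1, 16.6 and 18.6 CPM to 109, 126 and 108 CPM, with a log2FC of 2.80 ± 0.18 (adjusted p = 5.18e-07). PR3, a chitinase, had a log2FC of 3.35, where 33.1% of its exon length faces an exon on the other strand, and CBP60G, an activator of salicylic acid synthesis, of 2.76. PR5 and CYP71A13, of camalexin synthesis, had no count in any 5 d library and were at least 10.3-fold and 18.7-fold higher at 10 d, against a floor of 3 counts over the group, and the call of PR5 was lost without the 5 d replicate a (adjusted p = 0.0507). The fitted log2FC of CYP71A13 was 8.51, and 7.72 without the 10 d replicate b. PR1, the usual reporter of salicylic acid, had 0 counts at 5 d and 5 at 10 d and was not tested. Without the 5 d replicate a 5 genes of the list rose, and 10 or 11 rose without any other library.

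Of 23 jasmonate genes, 10 rose and 1 fell (median log2FC 1.23). CORI3, a marker of jasmonate treatment, rose from 0.713, 0.101 and 0.11 CPM to 13.6, 33.1 and 26.2 CPM (log2FC 5.80 ± 0.71, adjusted p = 6.54e-05). LOX2, the lipoxygenase of jasmonate synthesis in leaves, rose from 16.7, 15.8 and 6.69 CPM to 81.6, 162 and 126 CPM (log2FC 3.22 ± 0.52). AOC1, which acts later in that pathway, and the repressor JAZ6 had log2FC values of 4.67 and 2.28, whereas the repressor JAZ10 fell by 1.31 on the log2 scale, a call lost without the 5 d replicate a or the 10 d replicate c (adjusted p = 0.141 and 0.0957). The number of rises was 5 without the 5 d replicate a or c or the 10 d replicate b, 6 without the 10 d replicate c and 7 without the others. Of 15 aliphatic glucosinolate genes, 7 rose and none fell (median log2FC 1.5). TGG2, a myrosinase that splits glucosinolates, rose from 1.81, 2.12 and 1.32 CPM to 25.6, 18.9 and 27.2 CPM (log2FC 3.76 ± 0.29, adjusted p = 1.51e-06). That count was 3 without the 5 d replicate a, 4 without the 5 d replicate b or c or the 10 d replicate a or c, and 7 without the 10 d replicate b.

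Iron-deficiency genes rose, with 11 of 20 higher and 1 lower (median log2FC 1.03). BHLH38, a bHLH factor induced by iron shortage, rose from 1.16, 0.708 and 1.65 CPM to 16.8, 19.5 and 13.8 CPM (log2FC 3.83 ± 0.59, adjusted p = 0.000364). Its relatives BHLH39 and BHLH100 had log2FC values of 2.13 and 5.58, and 35.7% of the exon length of BHLH38 faces an exon on the other strand. BTS, an E3 ligase that restrains the response, rose from 68.3, 61 and 63.2 CPM to 117, 97.6 and 111 CPM (log2FC 0.76 ± 0.12, adjusted p = 0.000589). IRT1, the iron transporter of the root epidermis, went from 6.39, 18.7 and 18.4 CPM to 95.1, 26.4 and 36.9 CPM, with a log2FC of 1.89 whose call was lost without the 5 d replicate a or the 10 d replicate a (adjusted p = 0.0526 and 0.111). IRT2 went the other way (log2FC -1.93), with its call lost without the 5 d replicate a (adjusted p = 0.0689) or the 10 d replicate b (adjusted p = 0.0641). FIT1, the bHLH factor that switches on iron uptake in roots, and FRO2, the ferric reductase, were not called (log2FC -0.05 and -0.28).

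Cell cycle genes were mostly not called. Of 32 cyclins, cyclin-dependent kinases, MCM helicase subunits and other division genes, 2 rose and none fell. Log2FC values ran from -0.45 to 0.79 with a median of 0.05. The rises are 6.25% of the list, beside 10.4% of all genes tested. The mitotic cyclin CYCB1;1 was at 13.6, 12.9 and 12.1 CPM at 5 d and at 14.7, 13.3 and 12 CPM at 10 d, and these overlapped. CYCA2;4 and CDC20.1, with log2FC values of 0.79 and 0.63, were called without the 10 d replicate b, and CYCA2;4 also without the 5 d replicate a, but in no other fit that left out 1 library (adjusted p up to 0.256 and 0.129).

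The largest rise among DEGs with at least 10 CPM was that of AT3G21380, annotated as a mannose-binding lectin, from 0.143, 0.101 and 0.11 CPM to 119, 244 and 85.5 CPM (log2FC 10.13, adjusted p = 5.18e-07). CA1, the carbonic anhydrase of chloroplasts, rose from 0.0713, 0.101 and 0.11 CPM to 69.6, 33.7 and 28.9 CPM (log2FC 8.99). OSM34, an osmotin-like defence protein, was at 0.285, 0 and 0.878 CPM at 5 d and at 69, 82.5 and 62 CPM at 10 d. All 5 d libraries of these genes were at or below 0.878 CPM and all 10 d libraries at or above 28.9 CPM. AT5G33370, a GDSL lipase, had 2 counts at 5 d and 1490 at 10 d, a ratio of 409 with a counting interval of 113 to 3380. AT2G42560, annotated as a LEA protein, had a log2FC of 6.94 that became 4.09 without the 10 d replicate b, and it remained called.

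Among DEGs with at least 10 CPM at 5 d and no overlap between days, the largest falls included those of a lipid-transfer family gene and a sugar transporter. AT4G30880, of the lipid-transfer and 2S albumin superfamily, fell from 207, 198 and 234 CPM to 8.02, 2.94 and 8.06 CPM (log2FC -5.04 ± 0.36, adjusted p = 9.37e-07). MEE26, a hydroxyproline-rich glycoprotein, fell from 279, 260 and 283 CPM to 40, 11.7 and 24.2 CPM (log2FC -3.43 ± 0.37). AtVEX1, a sugar transporter of the SWEET family, fell from 29.9, 30.1 and 36.1 CPM to 3.11, 1.07 and 2.02 CPM (log2FC -3.90), and the thionin gene THI2.2 had a log2FC of -3.92, a call lost without the 10 d replicate c (adjusted p = 0.0522). For each of these the 10 d replicate b was the lowest library and the days did not overlap. A methionine tRNA, AT3G55735, had a fitted log2FC of -5.07 that rests on the 5 d replicate a, at 51 CPM against 2.73 and 1.76 CPM in its group, and without that library it was -1.96 (adjusted p = 0.388). Its call was also lost without any of the 10 d replicates (0.055 to 0.105).

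Markers of tissues that an embryo explant should lack were mostly not called. All 5 seed coat genes and the 1 pollen and tapetum gene that were tested were not called. In the endosperm list, EPR1, an extensin-like gene, rose from 22.5, 17.4 and 18.6 CPM to 251, 664 and 221 CPM (log2FC 4.28, and 3.60 without the 10 d replicate b), and SUC5, a sucrose carrier, fell by 2.42 on the log2 scale. The defining endosperm genes AGL62, MEA and ZOU were at most at 1.26 CPM in any library and were not called, and FIS2 and FWA had no count. Outside the list, and chosen after their values were seen, RR21 and YUC10, which are also known from endosperm, rose from 0 to 360 counts (at least 65.9-fold) and from 2 to 77 counts (a ratio of 21.2, with a counting interval of 5.66 to 178). The summed share of the endosperm list was 0.00195% to 0.00266% at 5 d and 0.0227% to 0.0639% at 10 d. Most of this share on both days was EPR1 alone, so it does not describe the list as a whole. MYB118, another member, was not called (log2FC 0.85, adjusted p = 0.2).

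The same interval of culture gave partly other changes on the embryogenic media. Of the 2454 genes that rose on E0, 745 also rose on ET and 460 on EA, while 203 and 93 fell there. Of the 1672 that fell, 219 and 385 also fell, while 220 and 104 rose. Over all genes tested, 2824 rose and 2007 fell on ET, and 1847 and 1225 on EA. Some lists rose there too, with 14 of 15 aliphatic glucosinolate genes higher on ET (none lower) and 16 of 26 xylem genes higher on EA (1 lower). From 5 d to 10 d, the change differed between E0 and ET in 3356 genes, 14.3% of those tested, and between E0 and EA in 2074 genes, 8.81%, by the test of the difference between the day effects in the fit over 18 libraries. Leaving out the 5 d replicate b or c of E0, or the 5 d replicate a of EA, reduced the latter to 1380, 1339 or 1374. On ET the share of storage and oil-body genes of counts went from 3.78% ± 0.779 at 5 d to 13.8% ± 2.14 at 10 d and on EA from 5.43% ± 0.828 to 4.01% ± 1.29 (SD, n = 3), against 13.5% and 16.4% on E0. The day effect of 11 of the 15 genes differed between E0 and ET, and of 3 between E0 and EA. SESA4, a 2S albumin, had a log2FC of -0.48 on E0 and 2.24 on ET (difference -2.72, adjusted p = 0.00181).

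Many root hair and defence genes had day effects that differed between E0 and ET. For LRX1 the log2FC was -1.99 on E0, 5.84 on ET and 1.52 on EA, and the difference between E0 and ET was -7.83 (adjusted p = 5.21e-05). The difference was called for 13 of the 17 root hair genes against ET and 6 against EA, and the median log2FC was -1.49 on E0, 2.63 on ET and 0.69 on EA. For PBS3 the log2FC was 6.09 on E0 and -1.98 on ET, a difference of 8.07 (adjusted p = 0.000229). Of the 19 defence genes, 14 differed between E0 and ET and 1, PBS3, between E0 and EA. On ET 9 of these genes fell and 2 rose, namely PR3 and PR4, with log2FC values of 2.81 and 1.19. Among the regulators, AGL15 had a log2FC of -0.92 on E0 and 0.59 on ET (difference -1.51, adjusted p = 9.84e-05), and 6 of 12 regulators differed from ET. Of the 13 LEA genes, 8 rose on E0 and 8 on ET, not all of them the same genes, and none had a called difference between them, which does not show that they changed alike.

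**Figure D5:**
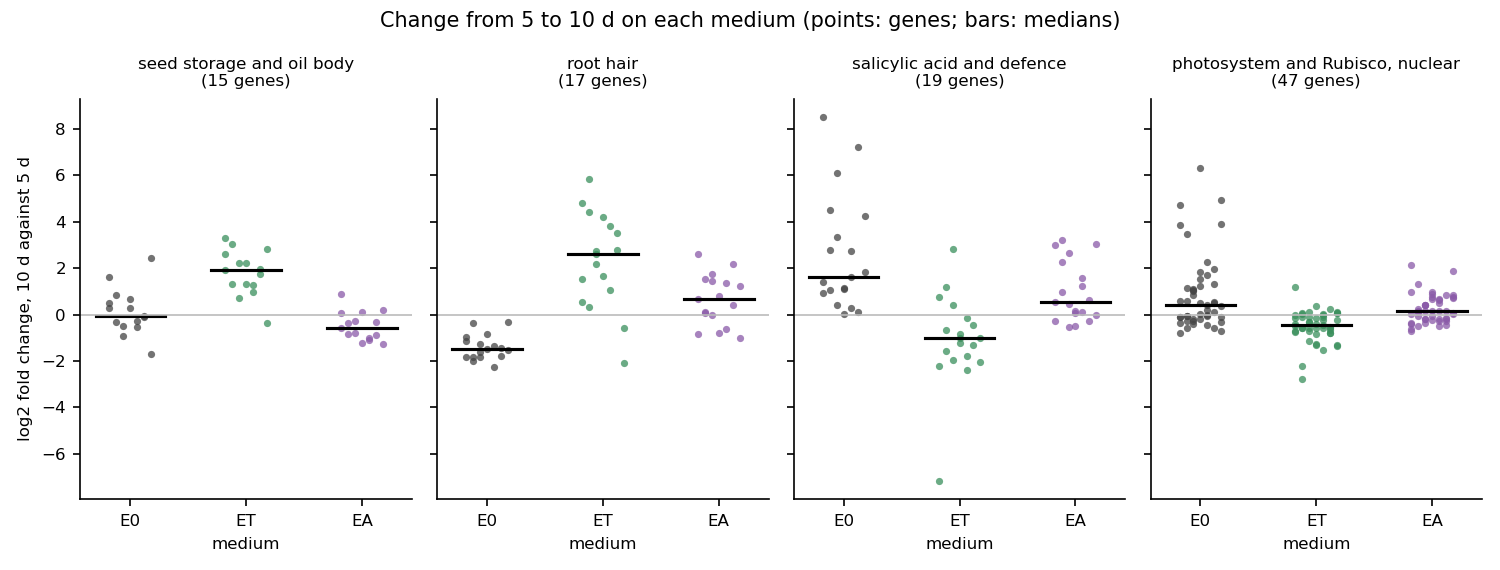
The log2FC of 10 d against 5 d in each medium for members of the storage, root hair, salicylic acid and defence, and photosystem lists (vertical axis, log2 units; a point per gene, a bar at the median). Root hair genes have medians of -1.49 on E0, 2.63 on ET and 0.69 on EA, and storage genes of -0.05, 1.92 and -0.57.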

How the data were processed

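RNA was sequenced from explants pooled per culture, 3 libraries in each of 6 groups. After trimming and removal of ribosomal RNA reads, the authors mapped the reads to TAIR10 with STAR. The deposited counts are whole numbers of uniquely mapped reads for each gene and are not normalized. The annotation release and the strand setting are not given in the sources used here. All count columns were matched to a labelled library, and 0 were left out.

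The analysis used edgeR 4.0.16 with limma 3.58.1, and DESeq2 1.42.0 as an alternative, under R 4.3.3. Genes passing filterByExpr were scaled with TMM and fitted with a mean per group over 18 libraries by edgeR's quasi-likelihood method, with Benjamini-Hochberg adjustment within each contrast and a threshold of 0.05. Each standard error is the log2FC divided by the root of its F statistic. CPM were computed on TMM-adjusted library sizes, and folds against a group without counts use 3 counts over the group. Libraries of a group differed by more than sampling noise. Shares were compared with exact two-sided permutation tests.

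The gene lists were written from general knowledge, and the members and lists were chosen with earlier results of these data known. The genes that could be named were the 8 with the largest log2FC in each direction among DEGs with at least 10 CPM and no overlap, in each list the 3 DEGs with the largest log2FC among those with at least 5 CPM and the most abundant member, and for each difference between media the 2 with the smallest p in each direction, of which 1 is not reported here. Other members of the lists are named for their roles after their values were seen. Promoters and overlapping or repeated exons (76-base windows) were read from RefSeq's TAIR10.1. The alternatives were other scalings, filters, fold thresholds, tools and sets of libraries, including each library left out in turn. On data simulated for 10 d against 5 d with 200 changed genes among 23287, edgeR recovered 33% of 2-fold and 88% of 4-fold changes, and 3.97% of its calls were false. Far fewer genes were changed there than the 4126 called in the data, so these shares do not give the power or error of the actual comparison.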

Additional observations from a re-analysis of the deposited data

Results flagged for a closer look

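The change from 5 d to 10 d differed between E0 and ET in 3356 genes, 1558 with the more positive change on E0 and 1798 with the more negative one, and between E0 and EA in 2074 genes, 1075 and 999. By list, the difference from ET was called for 11 of 15 storage and oil-body genes, 6 of 12 embryo and seed regulators, 13 of 17 root hair genes and 14 of 19 salicylic acid and defence genes. All of these rest on the test of the difference between the day effects by edgeR's quasi-likelihood method.

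Genes with the smallest p of that difference are given next. GBSS1, a granule-bound starch synthase, rose on E0 from 37, 40.2 and 34.9 CPM to 143, 118 and 146 CPM and had a log2FC of 1.86 on E0 and -0.44 on ET, a difference of 2.31 (adjusted p = 7.2e-06). ESM1, a modifier of glucosinolate breakdown, differed by 7.73 between E0 and ET (adjusted p = 9.54e-06), with 25.3% of its exon windows found elsewhere in the genome. CYP78A5, a cytochrome P450 that promotes organ growth, fell on E0 from 24.8, 27.3 and 31.5 CPM to 6.73, 6.89 and 6.18 CPM and rose on ET, with log2FC values of -2.08 and 2.04 and a difference of -4.12 (adjusted p = 4.29e-06).

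Against EA, AT5G63180, a pectin lyase-like gene, differed by 3.75 and AT5G22460, of the alpha/beta-hydrolase superfamily, by 4.55. AT5G22460 went from 1.66, 1.92 and 1.32 CPM to 17.8, 34.1 and 18.5 CPM on E0. IAA28, an Aux/IAA repressor of auxin responses, fell on E0 and rose on EA, with log2FC values of -0.70 and 1.89 and a difference of -2.59 (adjusted p = 1.69e-05). AT4G32480 differed by -6.89, with log2FC values of 0.77 on E0, which was not called, and 7.67 on EA.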

How the results depend on the processing

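No called gene of the 137 named ones reversed under an alternative. Without the 10 d replicate b the log2FC of ICL, MLS, RBCS1A, LHCB1.3, PSBO1, WOX5, FIT1, ABI5 and FLS1, none of them called, changed sign, to -0.05, -0.26, 0.04, 0.19, 0.12, -0.39, 0.15, -0.28 and 0.03. The 2454 rises and 1672 falls became 581 and 111 when tested against a 2-fold change with glmTreat, and 766 falls had an absolute log2FC of at least 1. With the 6 E0 libraries alone 2749 genes fell, and 3234 with the replicate block in addition. Each library left out in turn gave 1579 to 2115 rises, 959 to 1271 falls, 2370 to 3202 differences from ET and 1339 to 2371 differences from EA, where the fits without the E0 5 d replicate b or c or the EA 5 d replicate a gave 1380, 1339 and 1374. The replicate block over 18 libraries gave 2516 rises, 1835 falls, 3422 differences from ET and 2201 from EA. Whether the letters pair libraries was not settled. Within E0, deviations from the group means correlated at 0.186, 0.067 and -0.023 for letters a, b and c. Between unlike letters the values ran from -0.181 to 0.116, and pairing on ET and EA was not examined. Other scalings, no filter, removal of organelle or structural RNA genes, thinning to the shallowest total (2244 rises and 1483 falls) and DESeq2 (3007 and 1965 without the beta prior) stayed within 1.5 times.

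Of 137 named genes, between 11 (10 d replicate b) and 27 (10 d replicate c) lost their call when 1 E0 library was left out, 52 with glmTreat and 5 after thinning. Depth limits genes under about 0.33 CPM. Most 2-fold changes were missed in the simulation with 3 libraries per day, which changed only 200 genes and does not give the power of the actual comparison.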

Other observations

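Nitrogen, sulfur and cuticle genes had changes within lists that mostly were not called. NRT2.4, a high-affinity nitrate transporter of starved roots, fell from 4.37, 4.55 and 6.25 CPM to 0.778, 0.335 and 0.238 CPM (log2FC -3.46 ± 0.56, adjusted p = 0.000577 from edgeR). NRT1.5, which loads nitrate into the xylem, rose from 11.4, 17.7 and 29.9 CPM to 147, 96.8 and 125 CPM (log2FC 2.66), and NRT2.1 and NRT1.7 had log2FC values of 1.53 and 1.78. Among 25 nitrogen genes 4 rose and 1 fell (20% called), not far from the shares over all genes tested, where 10.4% rose and 7.10% fell. APR3, an enzyme of sulfate reduction, fell from 195, 214 and 273 CPM to 71.9, 86.6 and 74.6 CPM (log2FC -1.55 ± 0.37, adjusted p = 0.00836). DCR, an acyltransferase of cutin formation, fell from 588, 606 and 672 CPM to 169, 141 and 174 CPM, a log2FC of -1.95 ± 0.19 (adjusted p = 8.83e-06), while CER1, of wax alkane synthesis, rose from 7.25, 7.48 and 3.73 CPM to 37.8, 57.7 and 54.5 CPM (log2FC 3.0). Of 21 cuticle genes 3 rose and 6 fell, and the falls were 1 without the 5 d replicate a or the 10 d replicate b, 3 without the 10 d replicate a and 4 without the others.

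Of 14 stomatal lineage genes, 2 rose, 2 fell and 10 were not called, with a median log2FC of 0.08. FAMA, which drives the last step of guard cell formation, rose from 0.357, 0.607 and 0.549 CPM to 2.68, 1.47 and 2.92 CPM (log2FC 2.32). ICE1, its partner in the stomatal lineage, fell from 128, 158 and 185 CPM to 69.6, 94.2 and 73.8 CPM (log2FC -0.99), and ERL1 fell by 0.80 on the log2 scale. SPCH, MUTE and TMM of the same list were not called, with log2FC values of -0.42, 0.52 and -0.12. Among 14 trichome genes 2 rose and 1 fell (21.4% called), not far from the shares over all genes tested, where 10.4% rose and 7.10% fell. MYB106 and TTG2 rose with log2FC values of 4.14 and 0.94, and the call of TTG2 was lost without the 10 d replicate b (adjusted p = 0.0611). GIS, a zinc finger factor of trichome formation, was the 1 that fell, by 2.32 on the log2 scale. Among 15 senescence and sugar starvation genes 7 rose and none fell. SAG29, a sugar transporter of senescing tissue, rose from 1.66, 0.809 and 0.219 CPM to 7.03, 25.5 and 11.9 CPM (log2FC 3.8, and 3.19 without the 10 d replicate b), and the count of rises was 4 without the 5 d replicate c or the 10 d replicate b. In the clock list PRR7, a repressor that peaks by day, rose from 12.3, 14.6 and 15.6 CPM to 33.9, 37.3 and 44.6 CPM (log2FC 1.46 ± 0.28, adjusted p = 0.00182). PRR3 and LNK1 had log2FC values of 1.23 and 0.76, and the hour of sampling is not given in the sources used here, so a difference in hour was not tested. Of 20 clock genes 5 rose and 2 fell (35% called), beside 10.4% and 7.10% of all genes tested. The rises were 3 without the 5 d replicate a or b or the 10 d replicate c. No fall was called without the 5 d replicate b or c or the 10 d replicate b or c.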
